A study of Lactuca sativa with 9 samples.

Results

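Gene expression in mature leaves of 'Manatee' was compared with that in leaves of 60184 over all genes with enough reads to test. 'Manatee' is a commercial romaine lettuce (Lactuca sativa var. longifolia) with an intermediate shelf-life (ISL), and 60184 is an experimental romaine breeding line with a short shelf-life (SSL). The comparison used 3 libraries of 'Manatee' and 3 of 60184, that is 6 of the 9 libraries of the series, and the other 3 came from the cultivar 'Okeechobee'. The plants were grown in pots under a 16 h day at 22 °C, received no treatment that the labels name, and gave leaf RNA at maturity. Each shelf-life class is represented by 1 line, so differences linked to shelf-life and other differences between the lines cannot be told apart. The leaf position is described for 60184 but not for 'Manatee', and the labels number the libraries as replicates without saying that each came from its own plant, so p-values measure the spread between these libraries. Of 38910 annotated genes, 22062 had at least 10 reads in at least 3 of the 6 libraries and were tested. Every log2 fold change is 'Manatee' over 60184, and levels are in CPM, reads per 1e+06 gene reads, scaled between libraries and not by gene length.

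A mature leaf makes much messenger RNA for photosynthesis, including that of the nuclear genes for the light-harvesting antenna, the photosystem subunits and the small subunit of Rubisco. Leaves also carry the enzymes that make jasmonate, a hormone of wounding and defence, and the JAZ (TIFY) repressors that jasmonate itself induces. Wall-loosening and pectin-degrading enzymes shape leaf texture, and polyphenol oxidase turns phenolic compounds into the brown pigments seen on cut lettuce. Immune receptors of the NB-ARC type act inside the cell, and receptor-like kinases and receptor-like proteins act at its surface.

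Gene counts totalled 29927056 to 32299035 reads per 'Manatee' library and 30373633 to 32840811 per 60184 library. In each genotype 1 library stood apart from the others. 'Manatee' replicate 2 had 902 genes more than 2-fold above and 1312 more than 2-fold below both other 'Manatee' libraries, against at most 215 and 271 for the other 'Manatee' replicates. In 60184, replicate 1 had 370 genes above and 616 below its 2 partners by that measure. The mean variance of log2 CPM between replicates was 0.234 in 'Manatee' and 0.148 in 60184, and it was 0.108 without 'Manatee' replicate 2 and 0.0904 without 60184 replicate 1. Many counts are therefore also given without 'Manatee' replicate 2, and low counts met with another library left out are given with that library.

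The 2 genotypes separated along the first axis of a principal component analysis, which held 74.3% of the variance, with the 'Manatee' libraries at 70.2, 114 and 71.9 and the 60184 libraries at -95.8, -84.0 and -76.0. The second axis held 11.8%, and on it 'Manatee' replicate 2 lay at 60.7 while the other 'Manatee' libraries lay at -38.2 and -37.9. In edgeR's quasi-likelihood test, 4176 genes (18.9% of those tested) had an adjusted p under 0.05, of which 2278 (10.3%) were higher and 1898 (8.6%) lower in 'Manatee'. The majority depended on the scaling, since with upper quartile scaling 2025 genes were higher and 2359 lower. Without 'Manatee' replicate 2, 4700 genes passed (2497 higher, 2203 lower), and without any 1 library of 60184 between 1748 and 1975 did. At an unadjusted p under 0.05 there were 8028 genes (36.4%). The 3 libraries of 'Manatee' did not overlap the 3 of 60184 in 10033 genes (45.5%).

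A gene was called differentially expressed (DE) when, besides the adjusted p, its log2 fold change was 2 or more in size and 1 of the genotypes averaged 100 reads or more. This gave 718 DE genes (3.25%), with 440 (1.99%) higher and 278 (1.26%) lower in 'Manatee'. In all 718 the libraries of the genotypes did not overlap, but the p and fold criteria largely select for this. Without 'Manatee' replicate 2 there were 548 DE genes, 299 higher and 249 lower, and 529 of them were among the 718. Replicate 2 lay over 2-fold above both other 'Manatee' libraries in 164 of the 440 higher genes and over 2-fold below them in 61 of the 278 lower ones. Among the DE genes, 210 had a log2 fold change of 5 or more in size, 97 higher and 113 lower. Just inside the fold threshold, 66 DE genes had an absolute log2 fold change between 2 and 2.1, and 61 genes that met the other criteria lay between 1.9 and 2.

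**Figure D1:**
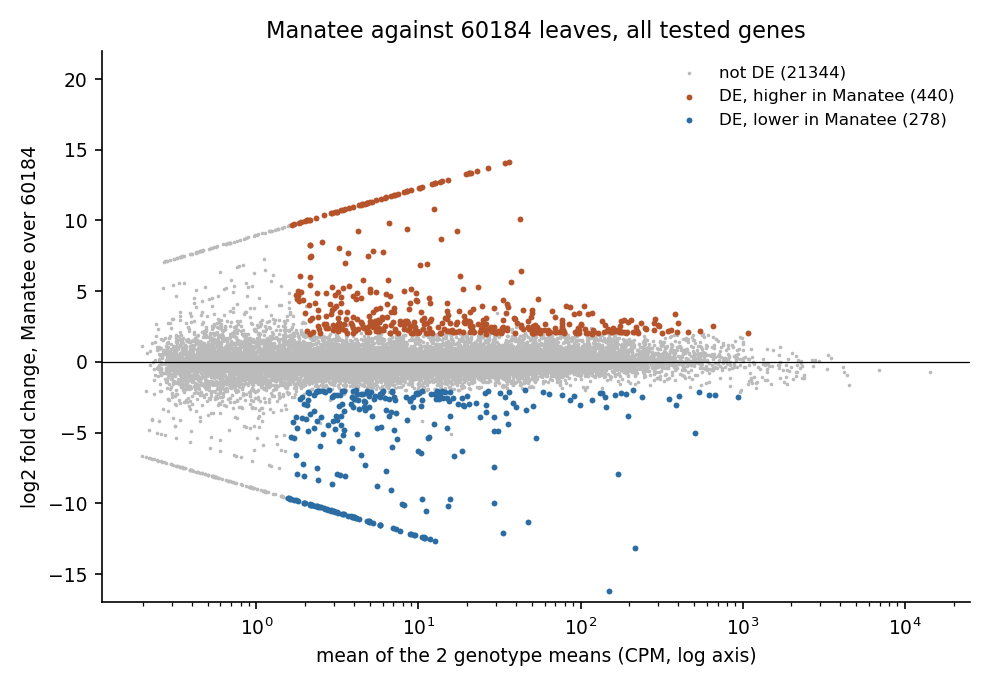
Log2 fold change of 'Manatee' over 60184 (vertical axis) against the mean of the 2 genotype means in CPM (horizontal log axis) for the 22062 tested genes, 1 point each, with the 440 higher DE genes in orange, the 278 lower in blue and all others in grey. The points on the straight upper and lower edges are genes without reads in 1 genotype, whose fitted fold change is set by the prior count and is not a measured size.

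Some genes were read in 1 genotype and not at all in the other. All reads were mapped to 1 reference genome, and the part of sequence differences between the lines in such zeros was not tested. There were 68 genes without a read in any 'Manatee' library and a mean of at least 100 reads in 60184, and 60 genes without a read in 60184 and at least 100 in 'Manatee'. The most highly read of the first kind was Lsat_1_v5_gn_9_102320, annotated as a catechol oxidase or tyrosinase, the enzyme class of polyphenol oxidase. It had 0 reads in the 3 'Manatee' libraries and 157, 292 and 454 CPM in the 3 of 60184. With a floor of 3 reads over the 3 libraries, it was at least 9271-fold lower in 'Manatee' (adjusted p = 0.00064). It was named here after its values were seen. A second polyphenol oxidase gene, Lsat_1_v5_gn_0_6400, averaged 0.289 ± 0.37 CPM in 'Manatee' and 6.34 ± 4.1 CPM in 60184 (SD, n = 3 each) with a log2 fold change of -4.48 (adjusted p = 0.020), or -6.25 without 'Manatee' replicate 2.

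In the opposite direction, Lsat_1_v5_gn_8_107560, described as a malonyltransferase of anthocyanin glucosides, had 52.2, 106 and 57.1 CPM in 'Manatee' and 0 reads in 60184, at least 2294-fold higher in 'Manatee'. Lsat_1_v5_gn_1_127001, a subunit B of DNA topoisomerase 6, stood at 44.9, 39.7 and 41.6 CPM in 'Manatee' against 0 reads in 60184, which is at least 1368-fold higher. Its neighbour in the annotation order, Lsat_1_v5_gn_1_126981, has the same description and was also without reads in 60184, at 32.9, 34.8 and 23.1 CPM in 'Manatee'. Every 'Manatee' library, replicate 2 included, held reads of all 3 genes. LURP-one-related 10 (Lsat_1_v5_gn_0_33241), named for a family linked to pathogen response in Arabidopsis, had 78.5, 69.7 and 58.0 CPM in 'Manatee' and none in 60184, at least 2230-fold higher. The DSK2a-like ubiquitin-domain gene Lsat_1_v5_gn_9_34501 (30.3, 25.0 and 28.7 CPM) and the TIR-type immune receptor gene Lsat_1_v5_gn_2_11741 (26.8, 30.7 and 23.7 CPM) showed the same all-or-none pattern.

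Other genes had a handful of reads in 1 genotype. Lupeol synthase 2 (Lsat_1_v5_gn_1_74301) is also described as a dammarenediol II synthase, and both names are of enzymes making triterpenes from a squalene derivative. It had 3 reads in all in 'Manatee' and 83.4, 103 and 98.6 CPM in 60184. The ratio of 60184 to 'Manatee' was 2890, with a 95% counting interval of 989 to 14017. Its neighbour Lsat_1_v5_gn_1_74321 with the same name had 2 low values and a 0 in 'Manatee' (0, 0.0354 and 0.0319 CPM) and 4.62, 8.02 and 6.87 CPM in 60184, and reads shared between such near-identical copies make the split between them uncertain. Caffeoyl-CoA O-methyltransferase (Lsat_1_v5_gn_2_85040), an enzyme of the lignin branch, had 3 reads in 'Manatee' and 24.5, 39.2 and 29.9 CPM in 60184, a ratio of 950 (95% counting interval 325 to 4609). The night-light clock partner LNK3 (Lsat_1_v5_gn_1_118261) had 0.254, 0.212 and 0.511 CPM in 'Manatee' against 41.5, 28.4 and 29.0 CPM in 60184 (log2 fold change -6.63 ± 0.33 SE, adjusted p = 7.4e-05). All 4 were at or near 0 in every 'Manatee' library, and passed with each library left out in turn.

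Among higher genes with reads in both genotypes, C-repeat-binding factor 4 (Lsat_1_v5_gn_2_130641), a regulator of cold and dehydration response in Arabidopsis, had 69.0, 52.2 and 78.2 CPM in 'Manatee' against 3.18, 4.64 and 3.57 CPM in 60184 (log2 fold change 4.13 ± 0.22, adjusted p = 8.1e-05). The cytochrome P450 gene Lsat_1_v5_gn_8_155860 had 42.4, 40.9 and 41.9 CPM in 'Manatee' and 7.55, 7.30 and 8.55 CPM in 60184 (2.42 ± 0.12, adjusted p = 7.2e-05). The spread within each genotype was small beside both differences. Both genes were named for a small p and no overlap between libraries, so this followed from the choice. Among lower genes, the flotillin-like gene Lsat_1_v5_gn_6_20460 had 0.222, 0.354 and 0.415 CPM in 'Manatee' against 67.6, 56.2 and 51.4 CPM in 60184 (-7.45 ± 0.24, adjusted p = 2e-05). The malectin receptor kinase gene Lsat_1_v5_gn_5_55541 had 0.285, 0.248 and 0.160 CPM in 'Manatee' and 19.6, 21.4 and 20.9 CPM in 60184 (-6.46 ± 0.23, adjusted p = 3e-05). Of the DE genes with the smallest p and no description, Lsat_1_v5_gn_2_7020, with 2 reads in all of 60184, and Lsat_1_v5_gn_1_84360 (6.89 ± 0.29) rose, and Lsat_1_v5_gn_5_118480, with 1 read in all of 'Manatee', and Lsat_1_v5_gn_2_49700, with none, fell.

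Descriptions were known for 3674 of the tested genes, and 507 of the 718 DE genes had one (299 higher, 208 lower). These descriptions came from the study's tables of genes, which had been chosen with values of these genotypes. Of the described genes, 64.5% passed the adjusted p (37.3% higher, 27.2% lower), against 18.9% of all tested genes, and of those from the table of genes expressed in both 60184 and 'Okeechobee' 98.7% passed, against 31.1% of the other described genes. A gene taken from that table thus passed this same comparison almost without exception, which its place in the table may have fixed. The other described genes were not free of such a choice. All 606 genes listed as expressed in 60184 only averaged under 100 reads in 'Manatee', and so did all 350 listed as expressed in 'Okeechobee' only. For the 606, a lower level in 'Manatee' may have been fixed by the listing, and the counts of lower genes may include them. A list of described genes starts from a raised background, and its count is a description and not independent evidence. Over 34 such lists, 957 genes were tested, of which 363 were higher and 282 lower. The median log2 fold change was 0.30 over described genes and -0.01 over all tested genes. More members were higher than lower in 20 lists and lower than higher in 11, and the majority turned in none of the 34 lists without 'Manatee' replicate 2.

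**Figure D2:**
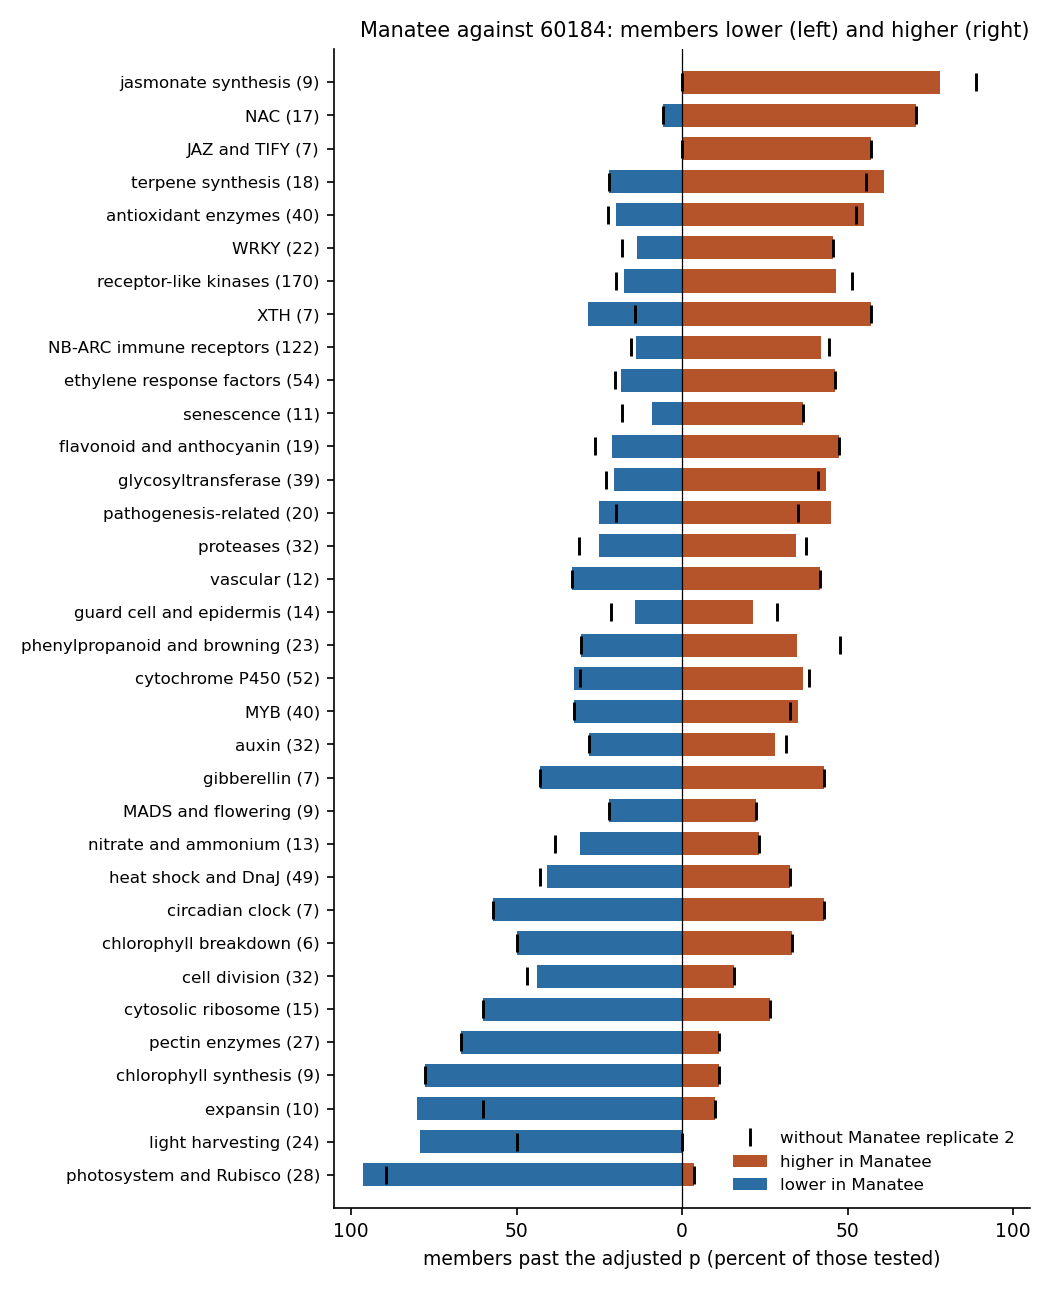
Members of each gene list past the adjusted p, in percent of the members tested (number in parentheses), with those lower in 'Manatee' to the left in blue and those higher to the right in orange. Black ticks give the same shares without 'Manatee' replicate 2; light harvesting is the list whose tick moved most on the lower side, with 12 members in place of 19.

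Genes of photosynthesis were lower in 'Manatee'. Of 24 light-harvesting antenna genes, 19 fell and none rose, with a median log2 fold change of -2.30, and 14 were DE. From the table in which 98.7% passed came 13 of the 24. Their summed level was 10305, 5046 and 9220 CPM in the 'Manatee' libraries and 42292, 17656 and 18492 CPM in the 60184 libraries. The groups did not overlap, but 'Manatee' replicate 2 was the lowest and 60184 replicate 1 the highest. With 1 library left out, 5 members (without 60184 replicate 1), 6 (without 'Manatee' replicate 3), 10 (without 60184 replicate 3), 12 (without 'Manatee' replicate 2 or 60184 replicate 2) or 15 (without 'Manatee' replicate 1) passed, and 23 did without both 'Manatee' replicate 2 and 60184 replicate 1. The median was -1.95 without 'Manatee' replicate 2. In bulk leaf RNA, fewer cells of a type and less RNA per cell cannot be told apart.

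The clearest member was LHCB2 (Lsat_1_v5_gn_9_104740), an antenna protein of photosystem II, with 1.77, 0.425 and 2.01 CPM in 'Manatee' against 521, 244 and 252 CPM in 60184. Its log2 fold change was -7.90 ± 0.64 (adjusted p = 0.00042), and -7.48 without 'Manatee' replicate 2 (adjusted p = 0.00018). Not all copies moved by as much. The adjacent LHCB2 copy Lsat_1_v5_gn_9_104700 averaged 49.3 ± 22 CPM in 'Manatee' and 223 ± 151 CPM in 60184 (-2.18, adjusted p = 0.030), and did not pass without 'Manatee' replicate 2 (adjusted p = 0.082). The LHCB2.3 copies Lsat_1_v5_gn_9_89920 and Lsat_1_v5_gn_9_104780 fell by 6.32 and 4.39 on the log2 scale. The authors counted uniquely mapped reads, so the division of reads among near-identical antenna genes is uncertain. Among the antenna genes with the most reads, LHCA2 (Lsat_1_v5_gn_3_31061) averaged 1493 ± 247 CPM in 'Manatee' and 3268 ± 1412 CPM in 60184 (-1.13 ± 0.31, adjusted p = 0.044). LHCA3 (Lsat_1_v5_gn_7_99221) also passed, just inside the threshold (-1.11 ± 0.32). Neither did without 'Manatee' replicate 2 (adjusted p = 0.062 and 0.075) or without 'Manatee' replicate 3 (0.098 and 0.10).

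Of 28 photosystem and Rubisco genes, 27 were lower and 1 was higher, with a median of -1.26, and 25 were lower without 'Manatee' replicate 2. As 25 of the 28 came from the table in which 98.7% of genes passed, the number that passed is no result of its own. Their sums were 15992, 12514 and 17640 CPM in 'Manatee' and 50442, 28102 and 28209 CPM in 60184. Leaving out 'Manatee' replicate 1 gave the fewest members lower, 12. The photosystem II subunit gene PsbW (Lsat_1_v5_gn_9_9761) had 21.3, 21.8 and 26.0 CPM in 'Manatee' against 68.1, 56.2 and 60.1 CPM in 60184 (-1.42 ± 0.13, adjusted p = 0.00065). The Rubisco small-subunit gene with the highest level, Lsat_1_v5_gn_2_79481, averaged 3071 ± 409 CPM in 'Manatee' and 5680 ± 1084 CPM in 60184 (-0.89 ± 0.21, adjusted p = 0.028, and 0.074 without 60184 replicate 2). The exception was Lsat_1_v5_gn_9_11801, described as a gene for the Rubisco large subunit, with 10.8, 8.75 and 9.73 CPM in 'Manatee' against 0.0642, 0.0929 and 0 CPM in 60184 (7.46 ± 0.49, adjusted p = 0.00015). Its description also names ribosomal protein S15, and its listed Arabidopsis match is a gene of the chloroplast genome. Whether it encodes a Rubisco subunit was not tested. A ferredoxin-1-related gene (Lsat_1_v5_gn_5_105820), whose namesake takes electrons from photosystem I, was among the abundant genes that fell (-0.92 ± 0.26, adjusted p = 0.044, and 0.11 without 'Manatee' replicate 1).

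Of 9 genes in the chlorophyll synthesis list, 7 were lower and 1 was higher, both with and without 'Manatee' replicate 2. Without 60184 replicate 1, 1 was lower, and 8 of the 9 came from that same table. The member that did not pass is described as a pheophorbide a oxygenase, an enzyme name from chlorophyll breakdown. The lower ones included 3 protochlorophyllide reductase genes, of which Lsat_1_v5_gn_5_6580 averaged 49.0 ± 24 CPM in 'Manatee' and 169 ± 34 CPM in 60184 (-1.79, adjusted p = 0.022). Among the lower members is also GLK1 (Lsat_1_v5_gn_4_65921), an activator of antenna and chlorophyll genes in Arabidopsis and not a synthesis enzyme. GLK1 had 65.3, 38.6 and 50.4 CPM in 'Manatee' and 119, 91.2 and 101.1 CPM in 60184 (-1.01 ± 0.21, adjusted p = 0.017, and 0.063 without 60184 replicate 1). Glutamyl-tRNA reductase (Lsat_1_v5_gn_9_114080), which catalyses the first committed step, rose (1.22 ± 0.22, adjusted p = 0.0099), but no member was higher without 60184 replicate 2. Of 6 chlorophyll breakdown genes, 2 were higher and 3 lower, with none higher without 60184 replicate 1. Non-yellowing 1 (Lsat_1_v5_gn_3_4460) rose by 1.08 ± 0.22 and a stay-green-like gene (Lsat_1_v5_gn_6_97181) fell by 1.17 ± 0.21 on the log2 scale, with adjusted p of 0.018 (0.075 without 60184 replicate 1) and 0.011.

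In the jasmonate synthesis list, 7 of 9 genes rose and none fell, with a median of 1.67, and without 'Manatee' replicate 2 there were 8 higher, with a median of 0.96. Of the 9, 7 came from the table in which 98.7% passed. The 7 that rose include a pair described as 9-lipoxygenases (Lsat_1_v5_gn_9_86541, 1.88, adjusted p = 0.0052, and Lsat_1_v5_gn_5_148821, 0.60, adjusted p = 0.015), a class that does not lead to jasmonate, which needs a 13-lipoxygenase. The other 5 are described as lipoxygenase 3, allene oxide synthase, allene oxide cyclase and 12-oxophytodienoate reductases. Their summed level was 2370, 6353 and 2545 CPM in 'Manatee' and 1084, 981 and 1173 CPM in 60184. Replicate 2 was by far the highest, and the other 'Manatee' libraries also lay above all of 60184. Without any 1 library of 60184, 2 members passed, namely 12-oxophytodienoate reductase 2 and the 9-lipoxygenase gene Lsat_1_v5_gn_9_86541. 12-oxophytodienoate reductase 2 (Lsat_1_v5_gn_4_68701) had 506, 596 and 414 CPM in 'Manatee' against 139, 153 and 177 CPM in 60184 (1.69 ± 0.19, adjusted p = 0.0015). Lipoxygenase 3 (Lsat_1_v5_gn_4_93560), which oxygenates linolenic acid at the start of the pathway, had 924, 3217 and 1071 CPM in 'Manatee' and 483, 349 and 424 CPM in 60184. Its log2 fold change of 2.05 ± 0.48 (adjusted p = 0.028) became 1.25 without 'Manatee' replicate 2 (adjusted p = 0.0013), so that it kept the direction and lost the DE call. Allene oxide synthase (Lsat_1_v5_gn_1_19560) rose by 1.49 ± 0.34 (adjusted p = 0.026), and by 0.96 without replicate 2. Without 60184 replicate 2 neither gene passed, at adjusted p of 0.10 for lipoxygenase 3 and 0.095 for allene oxide synthase.

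Of 7 JAZ and TIFY repressor genes, 4 rose and none fell, the same numbers with and without 'Manatee' replicate 2. Of the 7, 3 came from the table in which 98.7% passed. A JAZ1 gene (Lsat_1_v5_gn_1_37841) had 209, 456 and 273 CPM in 'Manatee' against 38.3, 41.2 and 48.1 CPM in 60184 (2.88 ± 0.30, adjusted p = 0.0011). A second JAZ1 gene, Lsat_1_v5_gn_5_137041, had 61.4, 146 and 71.8 CPM in 'Manatee' and 6.84, 4.77 and 9.88 CPM in 60184 (3.70 ± 0.42, adjusted p = 0.0018). Replicate 2 was again the highest of the 'Manatee' libraries in both, and neither gene overlapped 60184. JAZ10 (Lsat_1_v5_gn_3_31461) rose by 2.45 ± 0.46 (adjusted p = 0.013), or by 1.72 without replicate 2. JAZ8 (Lsat_1_v5_gn_7_28101) rested more on that library, with 3.55, 26.1 and 2.33 CPM in 'Manatee' and 0.321, 0.0619 and 0.649 CPM in 60184 (4.92 ± 1.16 with it and 3.07 without it). JAZ10 did not pass without 60184 replicate 2 (adjusted p = 0.059), nor JAZ8 without 60184 replicate 1 (0.10), and 2 members of the list passed without 60184 replicate 1. Of the 3 members that did not pass with all libraries, the other JAZ1 copies had log2 fold changes of 0.66 (Lsat_1_v5_gn_8_85820) and 1.03 (Lsat_1_v5_gn_5_139561) at adjusted p of 0.083 and 0.076.

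**Figure D3:**
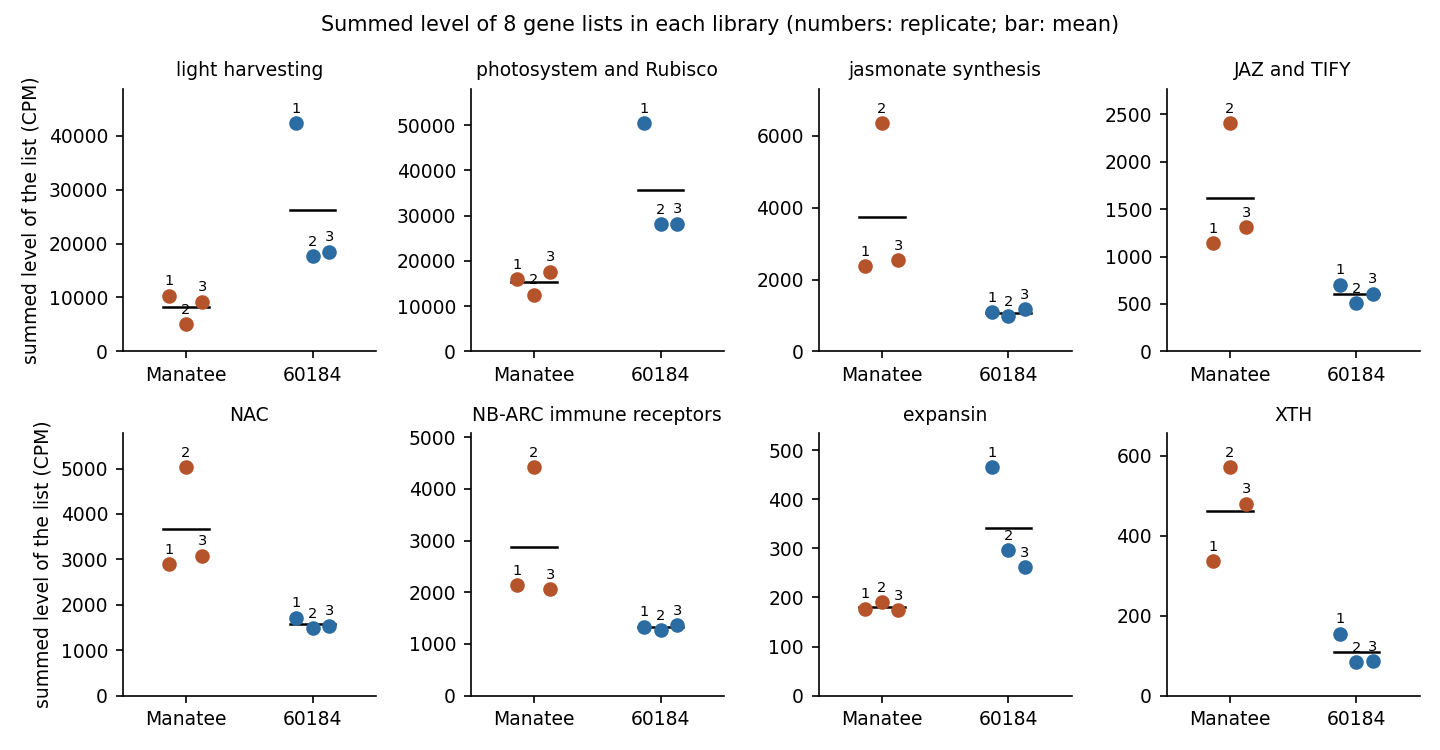
Summed level (vertical axis, CPM, from 0) of 8 gene lists in each 'Manatee' library (orange, left) and each 60184 library (blue, right), with the replicate number above each point and a bar at the mean of 3. Light harvesting and photosystem sums lie below those of 60184 in every 'Manatee' library, jasmonate synthesis, JAZ, NAC and NB-ARC sums lie above with 'Manatee' replicate 2 highest, and 60184 replicate 1 is highest for the photosynthesis and expansin lists.

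Of 27 pectin enzymes, 18 fell and 3 rose, the same numbers without 'Manatee' replicate 2, with a median of -1.13, and 10 were lower without 60184 replicate 2. The table in which 98.7% passed gave 16 of the 27. The pectate lyase Lsat_1_v5_gn_2_115560, which cleaves de-esterified pectin, had 5.99, 2.51 and 7.34 CPM in 'Manatee' against 42.5, 38.5 and 38.3 CPM in 60184 (-2.91 ± 0.35, adjusted p = 0.0023). A pectin acetylesterase gene (Lsat_1_v5_gn_9_85740) had 2 reads in all of 'Manatee' and 16.2, 13.3 and 10.9 CPM in 60184. The polygalacturonase gene Lsat_1_v5_gn_6_8401 fell by 3.18 ± 0.37 on the log2 scale (adjusted p = 0.0018). Those that rose were the pectin acetylesterase Lsat_1_v5_gn_6_74421 (1.24, adjusted p = 0.0065), the pectinesterase Lsat_1_v5_gn_3_127881 (2.1, adjusted p = 0.0028) and the pectin lyase-like gene Lsat_1_v5_gn_6_22481 (1.68, adjusted p = 0.016). The fewest members lower, 10, came without 60184 replicate 2.

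Expansins loosen the wall without cutting it, and 8 of 10 fell while 1 rose, with a median of -1.69. The table in which 98.7% passed gave 6 of the 10. Expansin A8 (Lsat_1_v5_gn_2_124880) had 25.8, 19.3 and 16.7 CPM in 'Manatee' and 77.7, 56.4 and 57.6 CPM in 60184 (-1.64 ± 0.20, adjusted p = 0.0024). The expansin-A6 gene Lsat_1_v5_gn_8_15340 had 1.71, 0.319 and 0.511 CPM in 'Manatee' and 23.3, 6.53 and 7.14 CPM in 60184 (-3.84 ± 0.76, adjusted p = 0.015). The summed level of the list was 177, 191 and 175 CPM in 'Manatee' against 465, 296 and 261 CPM in 60184, where replicate 1 was the highest. Without 'Manatee' replicate 2, 6 members were lower, and without 60184 replicate 2, 2 were. The member that rose was expansin-like A1 (Lsat_1_v5_gn_8_121820), at 1.55 ± 0.29 (adjusted p = 0.012, and 0.059 without 60184 replicate 1).

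Xyloglucan endotransglucosylase/hydrolases (XTH), which cut and rejoin xyloglucan chains, included 4 genes that rose and 2 that fell of 7, or 4 and 1 without 'Manatee' replicate 2, with none lower without 60184 replicate 1. Of the 7, 4 came from the table in which 98.7% passed. The list holds only XTH genes with a description, fewer than those to which the study mapped reads. The 4 that rose lie within a short run of the annotation order on chromosome 8 and all were DE. Lsat_1_v5_gn_8_67381 had 22.0, 26.6 and 37.1 CPM in 'Manatee' against 1.57, 1.76 and 1.42 CPM in 60184 (4.17 ± 0.24, adjusted p = 9.6e-05). The log2 fold changes of Lsat_1_v5_gn_8_67360, Lsat_1_v5_gn_8_67301 and Lsat_1_v5_gn_8_67401 were 3.93 ± 0.26, 3.69 ± 0.33 and 2.69 ± 0.24, with adjusted p of 0.00017 and, for the last 2, 0.00064. Apart from Lsat_1_v5_gn_8_67401 they share 1 description, and how reads divide among near-identical copies is uncertain. All 4 passed with each library left out in turn. The 2 that fell, on chromosome 6, did not pass without 'Manatee' replicate 3, 60184 replicate 1 or 60184 replicate 3.

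Of 17 NAC genes, 12 rose and 1 fell (median 1.43), the same numbers without 'Manatee' replicate 2, with 7 higher without 60184 replicate 1. Of the 17, 11 came from the table in which 98.7% passed. That table also gave 25 of the 54 ethylene response factor, 10 of the 22 WRKY and 18 of the 40 MYB genes. The JA2L-like NAC gene Lsat_1_v5_gn_7_105640 had 165, 312 and 169 CPM in 'Manatee' against 25.1, 16.2 and 16.3 CPM in 60184 (3.49 ± 0.33, adjusted p = 0.00077). NAC2 genes at Lsat_1_v5_gn_6_56440 and Lsat_1_v5_gn_6_56480 rose by 1.93 ± 0.29 and 2.84 ± 0.44, the second by 2.16 without 'Manatee' replicate 2. Of 54 genes in the ethylene response factor list, 25 rose and 10 fell, and 11 of those that rose were DE and none of those that fell. Without 'Manatee' replicate 2 there were 25 higher and 11 lower, and without 60184 replicate 1 there were 2 lower. ERF1A (Lsat_1_v5_gn_6_92840) had 162, 182 and 190 CPM in 'Manatee' and 46.3, 38.7 and 43.5 CPM in 60184 (2.05 ± 0.13, adjusted p = 0.00015). Of 22 WRKY genes, 10 rose and 3 fell, and of 40 MYB genes 14 rose and 13 fell. These were, without 'Manatee' replicate 2, 10 and 4 WRKY genes and 13 and 13 MYB genes. With 60184 replicate 1 left out 4 WRKY genes were higher and 1 lower, and of the MYB genes 9 were higher without 60184 replicate 2 and 3 lower without 60184 replicate 3. WRKY gene Lsat_1_v5_gn_7_15520 had 69.8, 246 and 54.4 CPM in 'Manatee' and 12.8, 8.48 and 9.73 CPM in 60184 (3.58 ± 0.60, adjusted p = 0.0087), and 2.59 without replicate 2. MYB44 (Lsat_1_v5_gn_4_124580), a stress-related factor in Arabidopsis, had 21.2, 80.7 and 33.7 CPM in 'Manatee' against 0.610, 0.990 and 1.83 CPM in 60184 (5.29 ± 0.63, adjusted p = 0.0023), and was 4.57 without replicate 2. MYB60 (Lsat_1_v5_gn_2_31860), known from guard cells in Arabidopsis, fell by 1.49 ± 0.15 (adjusted p = 0.00084). The MYB list also holds Lsat_1_v5_gn_9_112680, described both as elongation factor 5A-3 and as myb-like protein X.

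Immune receptor genes changed in both directions. Of 122 NB-ARC list genes, 51 rose and 17 fell, of which 22 and 11 were DE, and without 'Manatee' replicate 2 there were 54 higher and 19 lower. Not all members are of the NB-ARC type: Lsat_1_v5_gn_6_42241, described as the receptor-like protein EIX2, is in this list and in the receptor-like kinase list. The higher count was 28 without 60184 replicate 3, and the shares of all described genes were 37.3% higher and 27.2% lower. Their summed level was 2134, 4415 and 2061 CPM in 'Manatee' and 1331, 1266 and 1366 CPM in 60184, with replicate 2 the highest. The NB-ARC gene Lsat_1_v5_gn_8_121540 had 8.91, 6.87 and 8.27 CPM in 'Manatee' against 78.6, 84.4 and 87.5 CPM in 60184 (-3.38 ± 0.14, adjusted p = 3.8e-05). Lsat_1_v5_gn_1_92800, described both as a TIR-type immune receptor and as protein ROH1, had 25.9, 26.5 and 22.8 CPM in 'Manatee' and 1 read in 60184. In both genes the libraries of the genotypes lay far apart, which followed from their choice by small p and no overlap. Of 170 genes in the receptor-like kinase list, 79 rose and 30 fell, 29 and 14 of them DE, and 87 were higher and 34 lower without 'Manatee' replicate 2. Without 60184 replicate 2 the higher count was 41. The Xa21-like kinase gene Lsat_1_v5_gn_2_122160 had 25.8, 32.0 and 24.9 CPM in 'Manatee' and 0, 0.0619 and 0.118 CPM in 60184 (8.72 ± 0.42, adjusted p = 7.2e-05). Receptor-like protein 54 (Lsat_1_v5_gn_1_60701) fell by 4.70 ± 0.25 (adjusted p = 8.1e-05). Of 20 genes in the pathogenesis-related list 9 rose and 5 fell, 7 and 4 without 'Manatee' replicate 2. There were 2 higher without 60184 replicate 3 and 3 lower without 'Manatee' replicate 3. One that rose, Lsat_1_v5_gn_9_50660, is described as PTI4, a transcriptional activator of pathogenesis-related genes. NB-ARC and receptor genes occur in families of similar sequence, and their counts are uncertain to that extent.

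Specialised metabolism showed large changes in single enzymes. Of 18 terpene genes, 11 rose and 4 fell, with 10 higher without 'Manatee' replicate 2 and 5 without 60184 replicate 2. Germacrene A hydroxylase (Lsat_1_v5_gn_8_115261), which acts on the way to the bitter sesquiterpene lactones of lettuce, had 75.8, 112 and 83.2 CPM in 'Manatee' against 13.6, 19.7 and 16.3 CPM in 60184 (2.45 ± 0.20, adjusted p = 0.00042). The genes that fell were the pair of lupeol synthase 2 genes above, a beta-amyrin 28-monooxygenase (Lsat_1_v5_gn_5_81721, -4.03 ± 0.31, adjusted p = 0.00029) and a terpene synthase 21 gene without reads in 'Manatee' (Lsat_1_v5_gn_6_58961). Among 23 phenylpropanoid and browning genes, 8 rose and 7 fell, and 11 were higher and 7 lower without 'Manatee' replicate 2. The table in which 98.7% passed gave 8 of the 18 terpene and 12 of these 23 genes. Of all described genes, 37.3% were higher and 27.2% lower. Cinnamyl alcohol dehydrogenase, the last enzyme of monolignol synthesis, was found on both sides. Lsat_1_v5_gn_4_34741 had 216, 151 and 221 CPM in 'Manatee' against 9.25, 13.7 and 15.5 CPM in 60184 (3.93 ± 0.26, adjusted p = 0.00015), and Lsat_1_v5_gn_9_111281 fell by 3.54 ± 0.31 (adjusted p = 0.00051). Phenylalanine ammonia-lyase 1 (Lsat_1_v5_gn_2_106540), the entry enzyme, averaged 890 ± 636 CPM in 'Manatee' and 438 ± 95 CPM in 60184 and did not pass (1.02, adjusted p = 0.16, and 0.26 without replicate 2).

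Of 19 flavonoid and anthocyanin genes, 9 rose and 4 fell, or 9 and 5 without 'Manatee' replicate 2. The flavonol glucosyltransferase UGT89B1 (Lsat_1_v5_gn_5_24841) had 528, 1024 and 552 CPM in 'Manatee' against 53.9, 71.5 and 72.9 CPM in 60184 (3.41 ± 0.31, adjusted p = 0.00064). A second malonyltransferase gene, Lsat_1_v5_gn_2_39381, had 90.2, 98.7 and 65.2 CPM in 'Manatee' and 0.128, 0.959 and 1.83 CPM in 60184 (6.42 ± 0.63, adjusted p = 0.00092). The P450 gene Lsat_1_v5_gn_6_32540, described as a flavonoid hydroxylase, fell by 6.0 ± 0.39 on the log2 scale. Of 52 cytochrome P450 genes 19 rose and 17 fell, against 20 and 16 without 'Manatee' replicate 2 and 12 and 11 without 60184 replicate 2. Of 39 glycosyltransferase genes 17 rose and 8 fell, with 16 and 9 without 'Manatee' replicate 2 and 4 lower without 60184 replicate 1. The table in which 98.7% passed gave 8 of the 19 flavonoid, 23 of the 52 P450 and 22 of the 39 glycosyltransferase genes. Shares over all described genes were 37.3% higher and 27.2% lower. Of 40 antioxidant enzyme genes 22 rose and 8 fell, none of them DE, and 21 and 9 did without 'Manatee' replicate 2. Of the 40, 28 came from the table in which 98.7% passed. The higher count was 8 without 60184 replicate 2 and the lower count 4 without 'Manatee' replicate 1. One that rose, a glutathione S-transferase gene (Lsat_1_v5_gn_8_81940), had 148, 140 and 121 CPM in 'Manatee' and 32.7, 36.8 and 51.0 CPM in 60184 (1.76 ± 0.19, adjusted p = 0.0013).

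Growth and housekeeping lists were mixed, beside shares of 37.3% higher and 27.2% lower over all described genes. Of 32 cell division genes 14 fell and 5 rose, with 15 lower without 'Manatee' replicate 2, 7 lower without 'Manatee' replicate 3 and 3 higher without 60184 replicate 2. Of 15 genes in the list called cytosolic ribosome, 9 fell and 4 rose, with and without 'Manatee' replicate 2, with 2 lower without 60184 replicate 3 and 1 higher without 60184 replicate 1. From the table in which 98.7% passed came 13 of the 15. Not all members are cytosolic ribosomal proteins: Lsat_1_v5_gn_5_128220 (rpsT, -0.97, adjusted p = 0.0043) and Lsat_1_v5_gn_4_182901 (rplL, -1.02, adjusted p = 0.027), which fell, bear names of bacterial type, and Lsat_1_v5_gn_8_52301, which rose (1.55, adjusted p = 0.027), is described as a protein of unknown function. The histone H4 gene Lsat_1_v5_gn_8_79040 had 72.6, 114 and 79.5 CPM in 'Manatee' against 10.1, 10.4 and 9.47 CPM in 60184 (3.15 ± 0.19, adjusted p = 0.00012), whereas the histone H4 gene Lsat_1_v5_gn_5_84360 fell by 0.82 on the log2 scale (adjusted p = 0.030). The summed level of the ribosome list was 1278, 2781 and 1455 CPM in 'Manatee' and 1208, 1090 and 1136 CPM in 60184, although most of its members were lower. Within it L10 (Lsat_1_v5_gn_8_98880) had 645, 2005 and 706 CPM in 'Manatee' and 203, 160 and 207 CPM in 60184 (2.56 ± 0.46, adjusted p = 0.011, and 0.052 without 60184 replicate 2), or 1.83 without 'Manatee' replicate 2. Of 7 clock genes 3 rose and 4 fell, with 2 lower without 'Manatee' replicate 1. Pseudo-response regulator 7 (Lsat_1_v5_gn_8_21260) rose by 0.86 ± 0.15 (adjusted p = 0.010), and LHY (Lsat_1_v5_gn_3_140720), a morning factor, averaged 150 ± 27 CPM in 'Manatee' and 284 ± 75 CPM in 60184 (-0.92, adjusted p = 0.029). The hour of sampling is not given in the sources used here. Of 13 nitrate and ammonium genes 3 rose and 4 fell, with 5 lower without 'Manatee' replicate 2 and none in either direction without 60184 replicate 1. A nitrate transporter gene (Lsat_1_v5_gn_4_4881) had 1.11, 8.11 and 0.543 CPM in 'Manatee' against 58.4, 43.5 and 101.1 CPM in 60184 (-4.40 ± 0.91, adjusted p = 0.019, and 0.057 without 60184 replicate 3), or -6.35 without 'Manatee' replicate 2. Of 11 genes named after senescence 4 rose and 1 fell, with 2 lower without 'Manatee' replicate 2 and 1 higher without 60184 replicate 1. The SAG101 gene Lsat_1_v5_gn_4_180981, named for an immunity and senescence gene of Arabidopsis, did not pass (-0.46, adjusted p = 0.14).

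The remaining lists were tallied too, beside the shares of 37.3% higher and 27.2% lower over all described genes. Of 49 heat shock and DnaJ genes 16 rose and 20 fell, of 32 protease genes 11 rose and 8 fell, of 32 auxin genes 9 rose and 9 fell, of 9 MADS and flowering genes 2 rose and 2 fell, and of 7 gibberellin genes 3 rose and 3 fell. Without 'Manatee' replicate 2 the higher and lower counts were 16 and 21 for heat shock, 12 and 10 for proteases and 10 and 9 for auxin. Without 60184 replicate 2 they were 5 and 11 for heat shock, and the higher count was 4 for proteases and 2 for auxin. Without 60184 replicate 1, 5 protease and 4 auxin genes were lower and no MADS gene passed, and without 60184 replicate 3, 1 gibberellin gene was higher. Marker genes of other leaf cell types were counted beside the same shares. Of 14 guard cell and epidermis genes 3 rose and 2 fell (4 and 3 without 'Manatee' replicate 2, and none lower without 'Manatee' replicate 3), with sums of 944, 1059 and 786 CPM in 'Manatee' and 1103, 955 and 923 CPM in 60184. Of 12 vascular genes 5 rose and 4 fell (2 higher without 60184 replicate 2), with sums of 186, 261 and 179 CPM in 'Manatee' and 162, 146 and 156 CPM in 60184. The guard cell sums overlapped between the genotypes and the vascular sums did not, and the part of cell type makeup in the other results was not tested.

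Gibberellin 2-oxidase 8 (Lsat_1_v5_gn_1_122260), which inactivates gibberellin precursors, fell, with 0.666, 0.283 and 0.670 CPM in 'Manatee' against 20.6, 24.0 and 22.4 CPM in 60184 (-5.35 ± 0.29, adjusted p = 8.1e-05). It belongs to the genes chosen for RT-qPCR, of which 12 were tested here. Primers are printed for 6 of these, picked after their values were seen, with 2 higher and 4 lower in 'Manatee'. They are given 5′ to 3′ in lower case, with no part marked.
EIX2-like forward (Lsat_1_v5_gn_6_42241): agtgtcctggagatgaagaa
EIX2-like reverse: cggcggttgagaagtaaag
NAC83 forward (Lsat_1_v5_gn_3_31741): gtgttctaccgaggcaaag
NAC83 reverse: ctcaactctcacatcgttctc
LHCB2 forward (Lsat_1_v5_gn_9_104740): ccttgactaccttggaaacc
LHCB2 reverse: agacccacccggataaat
GA2ox8 forward (Lsat_1_v5_gn_1_122260): ccaaagcctcgcaagaatg
GA2ox8 reverse: cctcacctgttcacatctcatc
Pectate lyase forward (Lsat_1_v5_gn_2_115560): gcgtgactatgatgatggactt
Pectate lyase reverse: gagatggatccgctccaataag
NB-ARC forward (Lsat_1_v5_gn_8_121540): cttccttgtcggtgctattc
NB-ARC reverse: ccaagctcaatacgggtaag

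Of these 12 genes, 3 rose, 7 fell and 2 did not pass the adjusted p. The EIX2-like receptor-like protein gene (Lsat_1_v5_gn_6_42241) had 28.2, 40.4 and 34.1 CPM in 'Manatee' and 3.76, 3.99 and 3.27 CPM in 60184 (3.22 ± 0.18, adjusted p = 8.8e-05). NAC83 (Lsat_1_v5_gn_3_31741) had 41.4, 128 and 51.1 CPM in 'Manatee' against 12.2, 15.4 and 15.2 CPM in 60184 (2.36 ± 0.42, adjusted p = 0.011), and was 1.69 without 'Manatee' replicate 2. It did not pass without 60184 replicate 1 (adjusted p = 0.056). WRKY70 (Lsat_1_v5_gn_9_39381) had 44.1, 93.2 and 52.5 CPM in 'Manatee' against 20.4, 18.6 and 20.5 CPM in 60184 (1.67 ± 0.27, adjusted p = 0.0079). A second gene described as NAC83, Lsat_1_v5_gn_4_1821, moved the other way, at 79.1, 55.6 and 65.6 CPM in 'Manatee' and 176, 104 and 115 CPM in 60184 (-0.98 ± 0.23, adjusted p = 0.027, and 0.072 without 'Manatee' replicate 3). The MADS-box gene Lsat_1_v5_gn_4_10400 had 23.2, 25.2 and 24.3 CPM in 'Manatee' and 25.6, 25.9 and 26.1 CPM in 60184 and did not pass (-0.10 ± 0.10, adjusted p = 0.53). The peroxisomal thiolase gene Lsat_1_v5_gn_5_179700, of the beta-oxidation steps that also serve jasmonate synthesis, had 34.8, 136 and 36.6 CPM in 'Manatee' against 46.2, 35.8 and 49.2 CPM in 60184. Its groups overlapped, it did not pass (0.66 ± 0.52, adjusted p = 0.39), and without 'Manatee' replicate 2 its log2 fold change was -0.29 (adjusted p = 0.20).

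**Figure D4:**
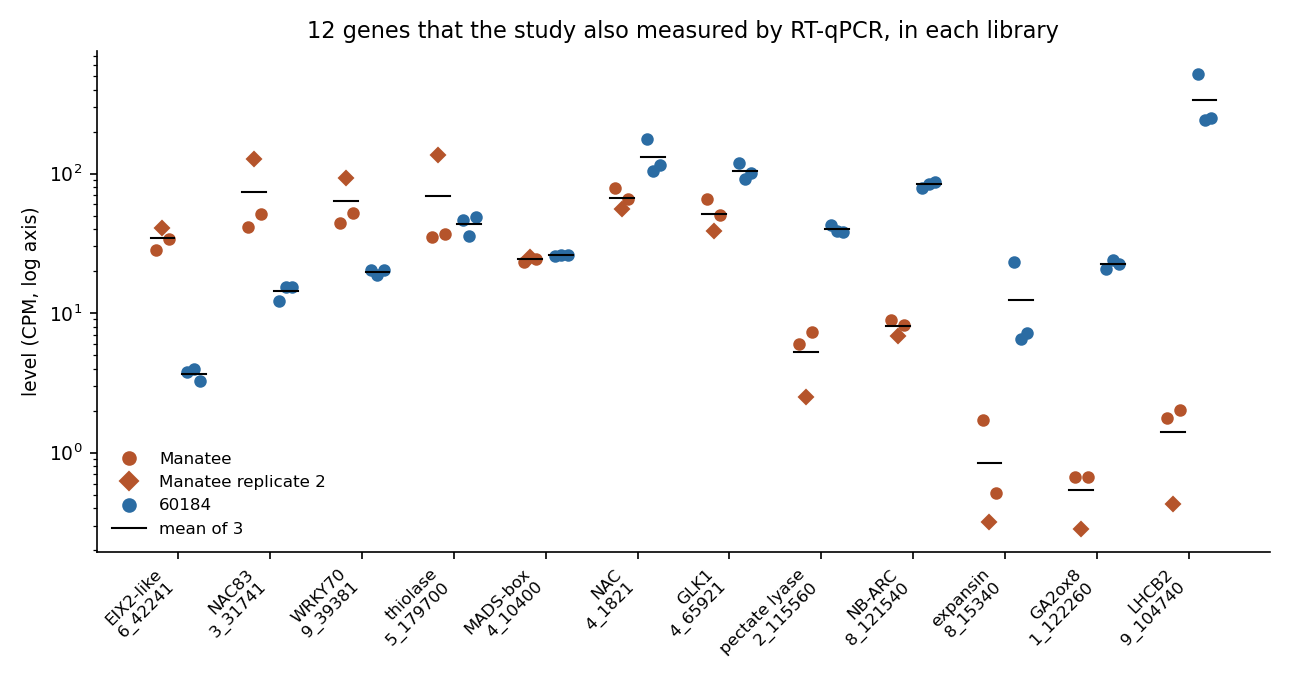
Level in CPM (vertical log axis) of 12 genes in the 3 'Manatee' libraries (orange, left of each pair, diamond for replicate 2) and the 3 60184 libraries (blue, right), with a bar at each mean, in order of log2 fold change. Log2 fold changes run from 3.22 for EIX2-like to -7.90 for LHCB2, and in the thiolase gene the libraries of the genotypes overlap.

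Among the genes with the most reads that passed, metallothionein (Lsat_1_v5_gn_8_73001), a metal-binding protein, had 2183, 2059 and 2571 CPM in 'Manatee' against 810, 1336 and 1171 CPM in 60184 (1.04 ± 0.23, adjusted p = 0.021). HMG-CoA reductase (Lsat_1_v5_gn_8_129040), which commits carbon to mevalonate, rose by 0.85 ± 0.23 (adjusted p = 0.040) and a blue copper protein gene (Lsat_1_v5_gn_5_96340) by 1.41 ± 0.35 (adjusted p = 0.030). A soluble beta-fructofuranosidase gene (Lsat_1_v5_gn_2_125121), an invertase that splits sucrose, had 2232, 1742 and 2724 CPM in 'Manatee' and 3447, 8884 and 8026 CPM in 60184 (-1.60 ± 0.37, adjusted p = 0.026). In that gene 60184 replicate 1 was the lowest of its group and still above all of 'Manatee'. Each of these 4 genes failed to pass with 1 library of 60184 left out, at adjusted p of 0.067 for metallothionein (without replicate 3), 0.14 for HMG-CoA reductase (without replicate 2), 0.11 for the blue copper protein gene (without replicate 1) and 0.088 for the invertase gene (without replicate 2).

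DE genes were found on all chromosomes, which the gene identifiers give as their first number after gn. Chromosome 7 had the lowest share, 41 of 1982 tested genes (2.07%), and chromosome 2 the highest (4.19% of 2408), beside 5.29% of the 473 unplaced genes. Without 'Manatee' replicate 2 the shares ran between 1.36% and 3.49%, on the same 2 chromosomes. Within chromosomes the genes were counted in blocks of 100 tested genes in annotation order. Over 212 blocks the median was 3 DE genes, 22 blocks had none and 9 had at least 10. The block with most DE genes, 16, was on chromosome 1 from Lsat_1_v5_gn_1_117981 to Lsat_1_v5_gn_1_127800, and held 14 without 'Manatee' replicate 2. It includes LNK3, gibberellin 2-oxidase 8 and both topoisomerase 6 subunit B genes. A block at the start of chromosome 2, from Lsat_1_v5_gn_2_241 to Lsat_1_v5_gn_2_5500, had 15 with and without that library, 12 of them lower in 'Manatee'.

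**Figure D5:**
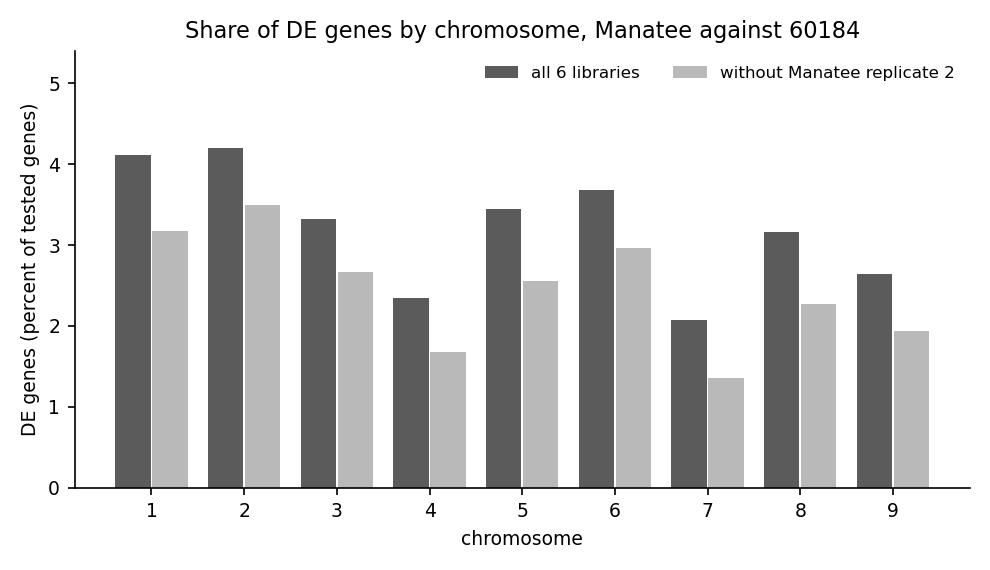
DE genes in percent of the tested genes (vertical axis, from 0) on chromosomes 1 to 9, with all 6 libraries (dark bars) and without 'Manatee' replicate 2 (light bars). Shares run from 2.07% on chromosome 7 to 4.19% on chromosome 2, and are lower on every chromosome without that library.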

How the data were processed

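Per the labels and the study's methods, the authors extracted leaf RNA, mapped trimmed reads with STAR to the v5 lettuce genome, and used HTSeq and SAMtools to count reads that map to 1 place, after removing PCR duplicates. The values deposited, 1 file per library, are raw counts that were not normalized, and DESeq2 is among the tools the submitters' notes name. Summary rows for reads outside genes, ambiguous and not unique reads were left out of the counts.

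Genes reaching 10 counts in 3 or more of the 6 libraries were tested with edgeR 4.0.16 in R 4.3.3 (TMM scaling, robust quasi-likelihood F test, two-sided, Benjamini-Hochberg over all 22062 genes). SE is the absolute log2 fold change over the square root of F. Tables were made in Python 3.11.15 with pandas 2.3.3, and figures with matplotlib 3.10.9. Log2 CPM used a prior count of 2. Floors of 3 reads over a genotype's 3 libraries and the exact 95% intervals cover counting error only. On simulated counts for this comparison (21794 genes), 0.0695% of unchanged genes passed the adjusted p, and 37.3%, 94% and 100% of those changed by a log2 of 1, 2 and 3 did. The changed genes numbered 67, 67 and 66, and all had a mean of at least 100 reads. No library was made to stand apart, so these rates may not hold for the real comparison.

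Gene descriptions came from the study's supplementary tables, in copies that describe 3733 genes. No identifier matched the RefSeq gene table used here (0 matches), so identifiers and names are those of the study. The 34 lists were made by words in the descriptions, and a gene may be in several. Members of a family without a description are in no list. The members, lists and named genes were chosen with earlier results of these data known. Named genes are the 12 higher and 12 lower DE genes of smallest p with a description and no overlap, up to 4 members of each list by p, 12 RT-qPCR genes, 2 higher and 2 lower without a description, and the 5 higher and 5 lower of highest mean CPM, and other genes named in the text were chosen after their values were seen. Alternatives were DESeq2 1.42.0, DESeq2 size factors, upper quartile scaling, no filter, a filter at 1 CPM, all 9 libraries in 1 model, a replicate block, each library left out in turn, and other thresholds.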

Additional observations from a re-analysis of the deposited data

Results flagged for a closer look

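Groups of 3 libraries are too small for a test of single outlying libraries, so none was run. Among data that the comparison does not use, reads outside annotated genes made up 7.70% of uniquely mapped reads in 'Manatee' replicate 1, 5.24% in replicate 2 and 6.26% in replicate 3, against 6.20%, 6.86% and 6.99% in the 60184 libraries. The first value lies above the highest of 60184. Reads that mapped to more than 1 place were 5.58%, 3.83% and 4.92% in 'Manatee' and 6.93%, 5.61% and 6.04% in 60184. 'Manatee' replicate 2 was lowest of the 6 libraries in both measures, and the part of these in its distance from the other 'Manatee' libraries was not tested.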

How the results depend on the processing

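The 718 DE genes became 1969 with a log2 threshold of 1 and 1166 without the one on the mean count. Under the other alternatives there were between 531 and 838 DE genes, and leaving out 1 library gave 539 to 838 in all, 299 to 514 higher and 215 to 324 lower. The 4176 genes past the adjusted p (2278 higher, 1898 lower) became 6100 with DESeq2 (2864 lower) and 2320 with replicate number as a block (1221 higher, 1099 lower). Leaving out 1 library gave 1748 to 4700 (908 to 2497 higher, 840 to 2203 lower). Libraries with the same number deviated together with r of 0.01, -0.21 and -0.14, and those with different numbers with r between -0.08 and 0.23. With 3 libraries per genotype these values cannot settle whether the numbers pair the libraries. The block is a technical alternative. An alternative added after seeing the data, without 'Manatee' replicate 2 and 60184 replicate 1, gave 531 DE genes, 504 of them among the 718, and 5751 past the adjusted p. Over the listed genes, 645 passed, against 360 to 658 with 1 library left out, and of the 162 named genes 160 passed, against 127 to 158. Upper quartile scaling turned the majority past the adjusted p, with 2025 higher and 2359 lower, and moved the median of all genes by less than 0.1. The thiolase gene Lsat_1_v5_gn_5_179700 turned sign without 'Manatee' replicate 2 (-0.29) and without both libraries (-0.24), with a range of -0.29 to 0.98 when 1 library was left out, and was not past the threshold in any of these. The first principal component held 95.4% with the 500 most variable genes, 48.6% with all 9 libraries and 50.5% with genes scaled, against 74.3%. The lowest share of DE genes by chromosome was 1.36% without 'Manatee' replicate 2 in place of 2.07%. The spread between replicates ranged from 0.108 to 0.301 in 'Manatee' and from 0.0904 to 0.183 in 60184 with 1 library left out. Causes of these shifts were not tested. Genes without reads numbered 102 and 82 with a mean of at least 50 in the other genotype, and 88 and 72 with at most 3 reads in place of 0, against 68 and 60.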
